A study of Danio rerio with 4 samples.

Results

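Cytochrome P450 transcripts were compared between uhrf1 mutant and wildtype zebrafish larvae at 120 hours post fertilization. Cytochromes P450 are heme-containing monooxygenases that insert an oxygen atom into small lipophilic molecules, with electrons passed to them by NADPH-cytochrome P450 oxidoreductase, cytochrome b5 or, in mitochondria, ferredoxin. Families 1 to 3 act mainly on foreign compounds and have broad substrate ranges, while higher-numbered families mostly have defined roles in the synthesis or breakdown of bile acids, steroid hormones, vitamin D and retinoic acid. In a larva, many of them are made in the liver and intestine, and others in the brain, kidney, interrenal gland or gonad. The members were all probe sets whose single annotated gene symbol begins with cyp and a digit, without the 4 probe sets of cyp51, the sterol demethylase of cholesterol synthesis. This gave 65 of the 15502 probe sets tested, and 47 of the 8793 genes they name, in 14 families.

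There were 2 arrays of mutant larvae (replicates 1 and 2) and 2 of wildtype larvae (replicates 1 and 3). UHRF1 binds hemimethylated DNA at replication forks and is needed to maintain DNA methylation. The age is that of the sample source labels, while the treatment protocol gives the same figure in days. The labels call the samples UHRF1 mutant or wildtype, and their growth protocol names offspring of uhrf1hi272+/- fish for most of the study's work without tying that cross to these arrays. A transgenic line, Tg(fabp10:hUHRF1-GFP), is named there too, and the labels attach it to none of the 4 arrays. Pooling of larvae and the origin of the replicates are not described there, so the spread behind each p-value is that between samples and may be technical. Whole larvae were used, so fewer cells of a type and less RNA per cell cannot be told apart in any value below.

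Values are intensities that the authors made with RMA (background correction, normalization between arrays and summary of the probes of each set), on a linear scale. Median intensities were 29.4 to 31.5 on the 4 arrays, so all changes are relative to the bulk of the array. Array controls added at hybridisation were lower by 0.49 log2 units in the mutant samples. When arrays were scaled on them, the median log2 change over the array moved from -0.04 to 0.45, and changes smaller than about this shift have no settled absolute direction. The brighter uhrf1 probe set read 41.1 and 26.3 in mutants against 47.4 and 41.5 in wildtype larvae, or -0.42 ± 0.23 in log2 units (SE; adjusted p = 0.56, limma), which neither bears out nor contradicts the labels. A probe set was called at an adjusted p under 0.05 from limma, with Benjamini-Hochberg adjustment over all 15502 probe sets, and those with a mean under 12.6 intensity units, the bound of the dimmest 25% of the array, are named as dim.

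Relative to the bulk of the array, most P450 transcripts read somewhat lower in mutant larvae, and few of the differences passed the test. With arrays scaled on the hybridisation controls this direction flipped, as 11 of 65 values lay below 0, 11 were called higher and 1 lower by limma (of all probe sets 33.1% were called higher and 0.619% lower), and the members' median was 0.33, under the 0.45 of the array. Of the 65 probe sets, 2 fell and none rose: 1 for cyp8b1.1, a bile acid enzyme, and 1 for cyp2ad2, an enzyme of family 2. This is 3.08% of the members, where 1.5% of all probe sets were called in either direction, 0.658% lower and 0.845% higher. With each gene represented by its brightest probe set, 0 of the 47 genes were called by limma, because both calls lay on another probe set of their gene. At an unadjusted limma p under 0.05, 8 of the 47 genes were lower and 0 were higher, against 6.84% and 5.1% of all probe sets.

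The members' log2 changes had a median of -0.16, against -0.04 for all probe sets, and 52 of 65 lay below 0 (80%, against 60.1% of all probe sets). Both mutant arrays read below both wildtype arrays for 26 members, or 40%, where 26.3% of all probe sets did so. The opposite order was found for 2 members, both of cyp26b1, where 14.9% of all probe sets showed it, and the groups overlapped for the other 37. Unadjusted limma p-values under 0.05 were found for 10 members that were lower (15.4%, against 6.84% of all probe sets) and for 1 that was higher (1.54%, against 5.1%). At an adjusted p under 0.10, 7 members of 6 genes were lower and none was higher, against 1.33% lower and 1.37% higher over the array. These shares describe the family beside the array and were not tested as a set.

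**Figure D1:**
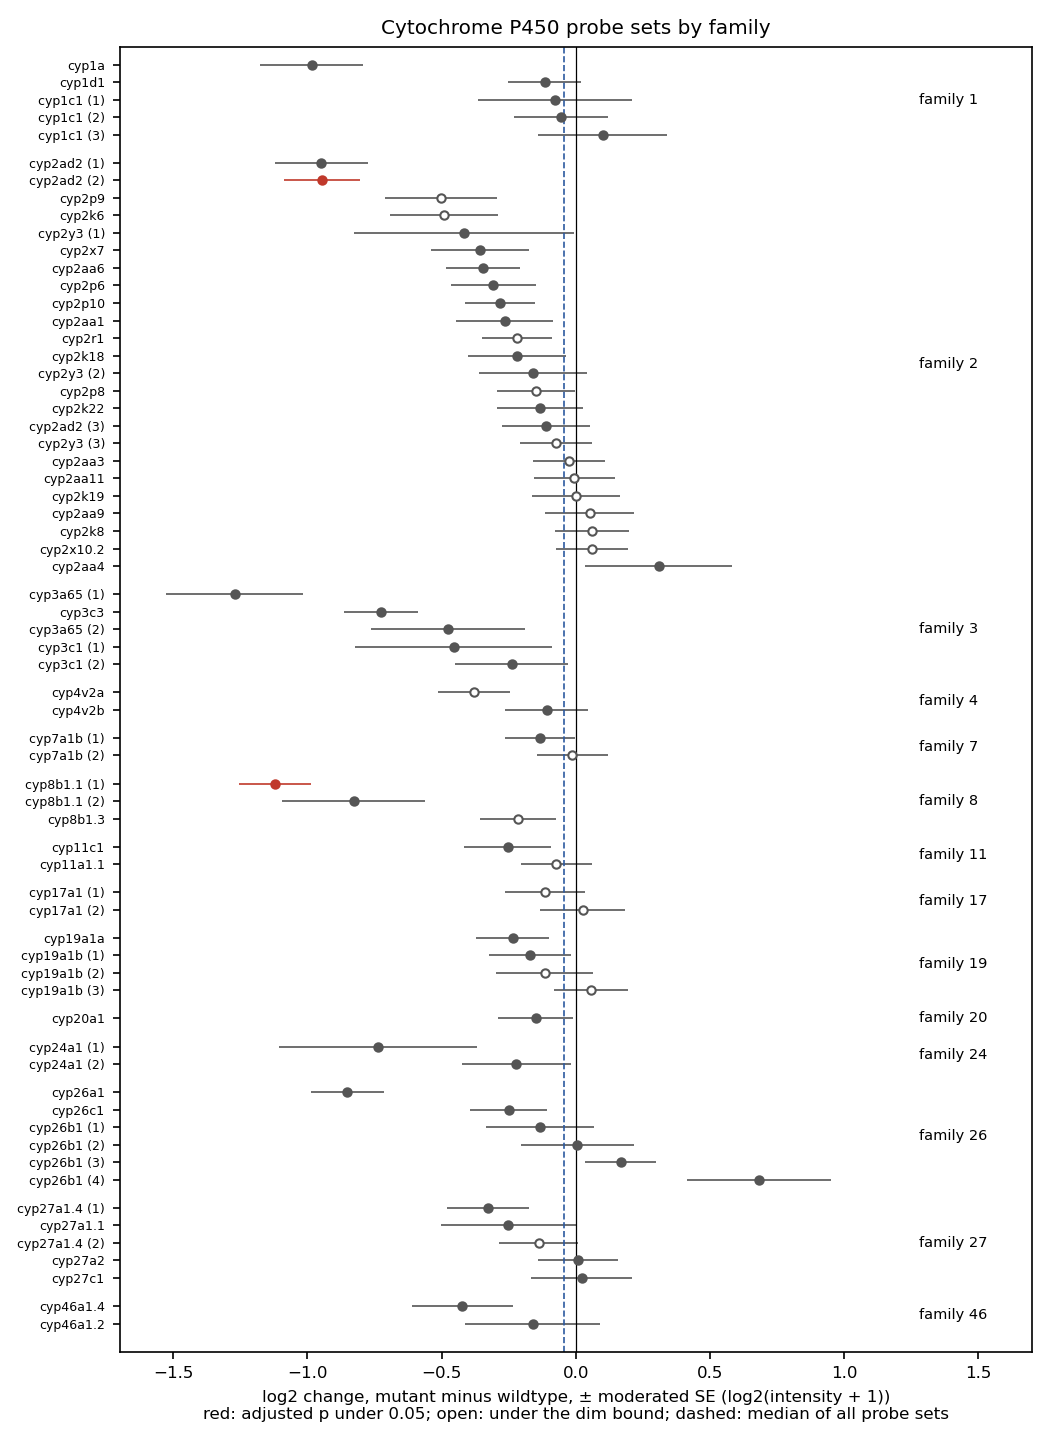
Log2 change of each of the 65 P450 probe sets (mutant minus wildtype, on log2(intensity + 1), with the moderated SE from limma, 2 arrays a group), by family. Red marks the 2 probe sets with an adjusted p under 0.05, open circles the 20 dim ones and the dashed line the median of all probe sets, -0.04. Probe sets of one gene are numbered from the lowest change. Points lie mostly left of 0 in families 2, 3 and 8, and on both sides in family 26.

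Dim and brighter members were also described apart. Of the 65 members, 20 were dim and 45 were not. The 45 had a median log2 change of -0.24, with 38 of them (84.4%) below 0. All 11626 probe sets above the same bound had a median of -0.05 and 58.8% below 0. The 20 dim members had a median of -0.07 and ranged from -0.50 to 0.06, with 70% below 0, while all 3876 dim probe sets had a median of -0.04 and 64.0% below 0.

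In the sterol and bile acid group, 1 of 11 probe sets fell and 10 did not pass; the median log2 change was -0.22. The largest values belonged to cyp8b1.1. In mammals CYP8B1 is the sterol hydroxylase that directs bile acid synthesis towards cholic acid. The first of its probe sets read 22.2 and 20.3 in mutants and 46.2 and 48.5 in wildtype larvae. The groups were far apart and the arrays within each were close. The mean dropped 2.23-fold, from 47.3 ± 1.68 to 21.3 ± 1.38 (SD, n = 2 each), or -1.12 ± 0.13 in log2 units (SE; adjusted p = 0.020, limma). The second cyp8b1.1 probe set read 35.5 and 63.1 in mutants and 82.8 and 87.1 in wildtype larvae. The groups again did not overlap, but the mutant arrays differed widely from each other. Its log2 change of -0.83 ± 0.27 (SE) did not pass (adjusted p = 0.29, limma). The single probe set of the neighbouring paralog cyp8b1.3 was dim, at 8.06 and 9.52 against 10.2 and 10.5, a log2 change of -0.22 ± 0.14 (SE). The call on cyp8b1.1 was lost with a pseudocount of 16 (adjusted p = 0.060), without mutant replicate 1 (adjusted p = 0.060) and without mutant replicate 2 (adjusted p = 0.077), all by limma, while its log2 change was -0.63 to -1.18 over all alternatives.

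The other bile acid and sterol enzymes did not pass. Cholesterol 7-alpha-hydroxylase, the rate-limiting enzyme of classical bile acid synthesis, was represented by cyp7a1b, whose brighter probe set read 15.6 and 16.8 in mutants and 17.9 and 17.8 in wildtype larvae. Its log2 change was -0.13 ± 0.13 (SE), with a 95% interval from -0.45 to 0.19. The dim second probe set of cyp7a1b changed by -0.01 ± 0.13. These intervals lie above the change estimated for the called cyp8b1.1 probe set, but the difference between the genes was not tested. Members of the cyp27a subfamily, related to the mitochondrial sterol hydroxylase of the alternative bile acid pathway, changed by -0.33 to 0.01. For the brighter cyp27a1.4 probe set the arrays read 32.5 and 37.3 against 47.3 and 40.8, without overlap. The other cyp27a1.4 probe set was dim and overlapped, with a change of -0.14 ± 0.15 (SE, log2). For cyp27a1.1 the arrays read 36.3 and 21.1 against 32.6 and 33.9, with overlap. The cyp27a2 probe set differed by 0.01 ± 0.15 (SE, log2). The mammalian CYP46A1 hydroxylates cholesterol in neurons, and of its 2 zebrafish relatives on the array cyp46a1.4 read 27.2 and 36.3 in mutants against 38.9 and 46.4 in wildtype larvae, a log2 change of -0.42 ± 0.19 with an adjusted p of 0.45 by limma. cyp46a1.2 overlapped, with a change of -0.16 ± 0.25 (SE).

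In families 1 to 3, leaving out cyp2r1, 1 of 33 probe sets fell and 32 did not pass; the median was -0.22. The fall was in cyp2ad2, which belongs to the fish relatives of mammalian CYP2J, enzymes that epoxidise polyunsaturated fatty acids. The called probe set read 44.4 and 39.1 in mutants and 83.9 and 78.4 in wildtype larvae. The mean fell 1.94-fold, from 81.1 ± 3.87 to 41.7 ± 3.76 (SD, n = 2 each), or -0.94 ± 0.14 in log2 units (SE; adjusted p = 0.041, limma). A second probe set of cyp2ad2 gave almost the same change, at 47.2 and 59.4 against 94.5 and 112.4, or -0.95 ± 0.17 (SE, log2), and missed the threshold with a limma adjusted p of 0.074. In both sets each mutant array lay below each wildtype array. The third, close to the dim bound, read 10.99 and 13.6 against 14.3 and 12.3 and changed by -0.11 ± 0.16 (SE). The call was lost by limma with median-centred arrays (adjusted p = 0.053), with a pseudocount of 16 (0.086), after scaling on the hybridisation controls (0.061, at a log2 change of -0.45) and without any 1 array (0.069 to 0.129).

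**Figure D2:**
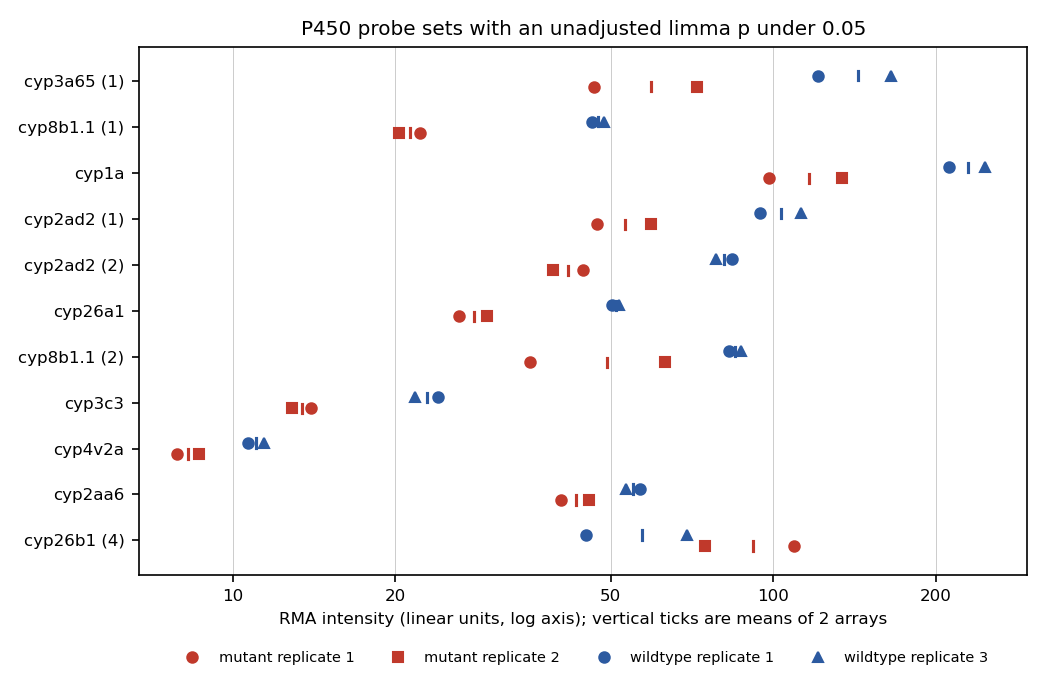
Intensities on each of the 4 arrays (horizontal log axis) for the 11 P450 probe sets with an unadjusted limma p under 0.05, ordered by log2 change; ticks mark group means of 2 arrays, and probe sets of one gene are numbered from the lowest change. The groups do not overlap in any of the 11, which selection by p on these same values makes likely. Of all probe sets, 26.3% had mutants lower without overlap and 14.9% had them higher. cyp26b1 is the gene in which mutants lie to the right of wildtype larvae.

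The largest differences among the other genes of families 1 to 3 were those of cyp3a65 and cyp1a. In the first cyp3a65 probe set and in cyp1a both mutant arrays lay below the wildtype range, and neither passed the test. cyp3a65 is a zebrafish CYP3A, the subfamily that in mammals oxidises many drugs and steroids. Its first probe set read 46.6 and 72.4 in mutants and 121.1 and 165.4 in wildtype larvae, a 2.41-fold ratio of means. The log2 change of -1.27 ± 0.26 (SE) was the lowest of the 65, with a limma adjusted p of 0.094, since both groups were spread. The second cyp3a65 probe set overlapped between groups, at 28.7 and 48.3 against 43.5 and 62.7, and changed by -0.48 ± 0.29 (SE). cyp1a, the classical target of the aryl hydrocarbon receptor, read 98.3 and 134.3 in mutants and 211.8 and 246.0 in wildtype larvae. This was a log2 change of -0.98 ± 0.19 (SE) with a 95% interval from -1.45 to -0.52 and a limma adjusted p of 0.086. By limma, the first cyp3a65 probe set passed the threshold with the dimmest 25% of probe sets removed (adjusted p = 0.046). With an intensity-dependent robust prior both it (0.029) and cyp1a (0.045) passed. Neither passed with quantile normalization (0.143 and 0.141), median-centred arrays (0.128 and 0.112) or a pseudocount of 16 (0.228 and 0.183). With 1 array left out, the log2 change of this cyp3a65 set was -1.58 to -0.96.

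The other family 1 genes showed smaller values. The 3 probe sets of cyp1c1, also a target of the aryl hydrocarbon receptor, overlapped between groups and changed by -0.08, -0.05 and 0.10. cyp1d1 read 22.6 and 23.95 in mutants and 24.2 and 26.4 in wildtype larvae, a change of -0.12 ± 0.13 (SE). Whether cyp1a differed from its relatives was not tested. In family 3, all 5 probe sets lay below 0, with a median of -0.48. cyp3c3, of a P450 subfamily described in fish, read 14.0 and 12.9 in mutants against 23.99 and 21.7 in wildtype larvae, or -0.72 ± 0.14 in log2 units (SE; adjusted p = 0.081, limma). Its neighbour cyp3c1 overlapped in both probe sets, with the brighter reading 213.3 and 257.3 against 231.0 and 331.5 and changing by -0.24 ± 0.21 (SE).

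Family 2, the most numerous on the array with 24 probe sets of 20 genes, had a median log2 change of -0.19, and 11 of its probe sets were dim. Beyond cyp2ad2, all 4 cyp2p probe sets had both mutant values below both wildtype values, an order found in 26.3% of all probe sets, without passing. They were cyp2p6, at 65.4 and 61.7 against 70.6 and 88.1, cyp2p10, at 15.7 and 16.8 against 20.02 and 19.96, and the dim cyp2p8 and cyp2p9, with log2 changes from -0.50 to -0.15. cyp2p8 and cyp2p9 carry probe set names that differ only in the letter for strand orientation, so they may share sequence. Of the 6 cyp2aa genes, cyp2aa6 read 40.6 and 45.7 in mutants against 56.6 and 53.4 in wildtype larvae, or -0.35 ± 0.14 in log2 units (SE; adjusted p = 0.41, limma). The other cyp2aa genes overlapped, and cyp2aa4, at 13.9 and 25.8 against 15.3 and 15.0, had the family's highest value, 0.31 ± 0.27 (SE), through mutant replicate 2 alone. The 5 cyp2k genes had a median of -0.13, with the dim cyp2k6 lowest at -0.49 ± 0.20 (SE). cyp2x7 read 15.5 and 20.7 against 21.4 and 25.3, the dim cyp2x10.2 changed by 0.06 and the 3 probe sets of cyp2y3 by -0.42, -0.16 and -0.07 with overlapping groups. Members of these subfamilies are close in sequence, and probe sets may read more than 1 of them.

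Some members are neighbours in the genome. In the RefSeq gene table of the GRCz12tu assembly, used for the order of protein-coding genes only, 21 of the 47 genes lay in 7 runs. Within a run, no protein-coding gene lay between members except those with a symbol beginning with cyp. The run of cyp2ad2, cyp2p6, cyp2p8, cyp2p9 and cyp2p10 had 7 probe sets, all with changes below 0 (-0.95 to -0.11, median -0.31), and in 6 of them the mutant arrays lay below the wildtype arrays, where 60.1% of all probe sets had changes below 0 and 26.3% had that order. The pair cyp8b1.1 and cyp8b1.3 had 3 of 3 probe sets in that order, with a median of -0.83. The 2 runs of 3 cyp2aa genes each had medians of -0.01 and -0.03, and the run of 4 cyp2k genes had a median of -0.11. In these runs 1 of 3, 2 of 3 and 3 of 4 probe sets were dim, against 2 of 7 in the run of cyp2ad2. The runs therefore also differ in brightness, and differences between them were not tested. The pair cyp3c3 and cyp3c1 had a median of -0.46 and the pair of cyp46a1 genes of -0.29. Neighbouring paralogs can share probe signal, so the members of a run are not independent of each other.

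The family 26 enzymes, which break down retinoic acid, differed among themselves in direction, and none of their 6 probe sets passed in limma (2 had an unadjusted p under 0.05). cyp26a1 read 26.3 and 29.6 in mutants and 50.3 and 51.8 in wildtype larvae. The arrays agreed closely within groups, and the log2 change was -0.85 ± 0.14 (SE), with a 95% interval from -1.19 to -0.52 and a limma adjusted p of 0.0504, just over the threshold. It was under the threshold with the dimmest 25% of probe sets removed (0.042) and with the robust prior (0.041). It did not pass with quantile normalization, median-centred arrays, arrays scaled on the hybridisation controls or a pseudocount of 16. cyp26c1 read 13.0 and 15.3 against 16.4 and 17.4, a change of -0.25 ± 0.14 (SE).

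cyp26b1 had 4 probe sets, which did not move alike. One read 109.1 and 74.7 in mutants and 45.0 and 69.3 in wildtype larvae, or 0.68 ± 0.27 in log2 units (SE; adjusted p = 0.39, limma), the highest value of the 65 members. Another read 150.4 and 156.7 against 131.5 and 142.0, a change of 0.17 ± 0.13 (SE). In these 2 the mutants lay above the wildtype arrays, while the remaining 2 overlapped and changed by -0.13 ± 0.20 and 0.01 ± 0.21 (SE). With arrays scaled on the hybridisation controls 2 of the 4 were called higher, where 33.1% of all probe sets were called higher. The first was 1 of them, at a log2 change of 1.17 and a limma adjusted p of 0.046. cyp27c1, which converts retinol to its didehydro form in the zebrafish eye, read 14.4 and 18.2 against 14.0 and 18.1 and changed by 0.02 ± 0.19 (SE).

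**Figure D3:**
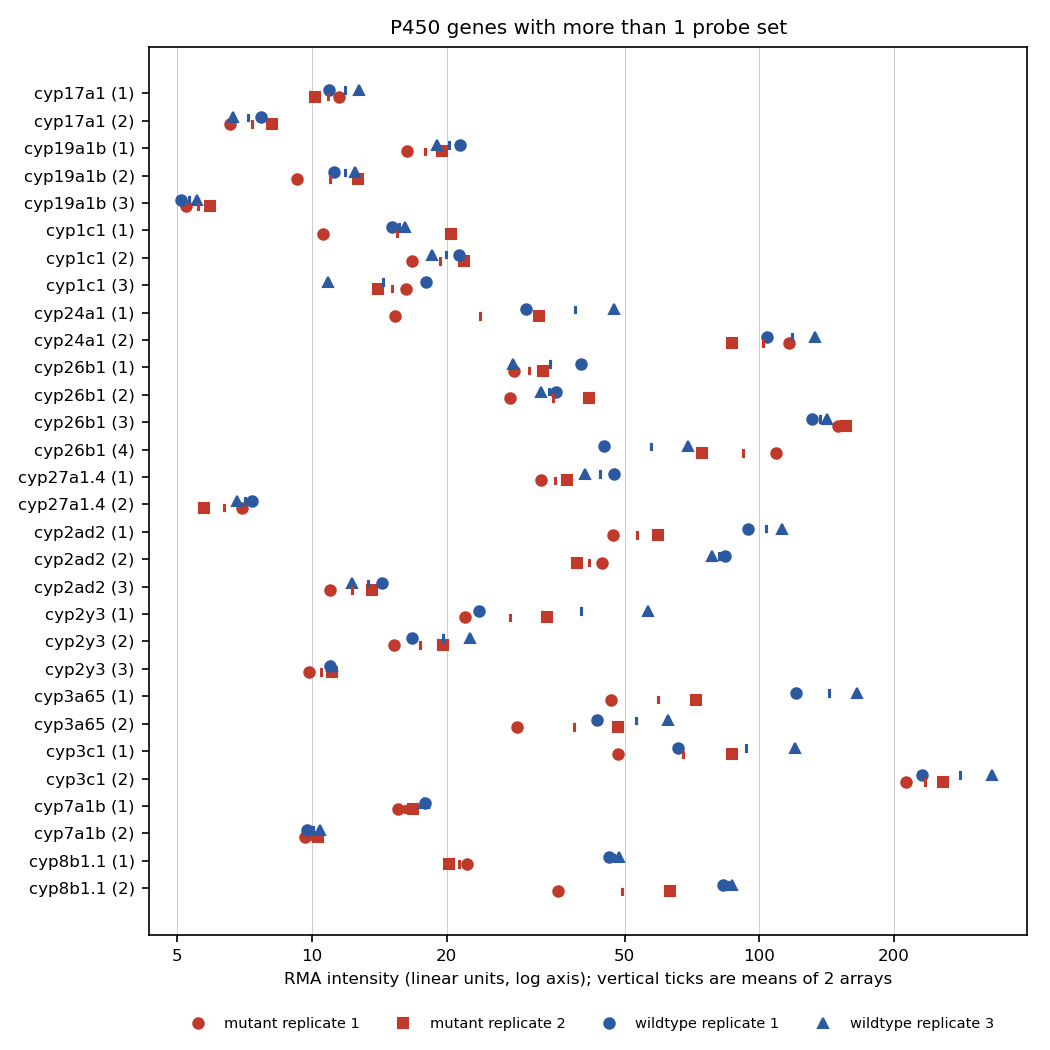
Intensities on each of the 4 arrays (horizontal log axis) for the 12 P450 genes with more than 1 probe set; ticks are group means of 2 arrays, and probe sets of one gene are numbered from the lowest change. For cyp8b1.1 both sets separate the groups, for cyp2ad2 and cyp26b1 2 sets do, and for cyp3a65 1 of 2 does.

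Probe sets of one gene often gave different sizes of change. Of the 12 genes with more than 1, 8 had all of them on the same side of 0, and the exceptions were cyp17a1, cyp19a1b, cyp1c1 and cyp26b1. The distance between the lowest and the highest log2 change was 0.84 in cyp2ad2, 0.82 in cyp26b1, 0.79 in cyp3a65 and 0.51 in cyp24a1, and 0.34 or less in the other 8. The transcripts that each set reads were not examined here.

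None of the 8 probe sets of steroid hormone synthesis passed in limma, with 0 at an unadjusted p under 0.05. Of these, 5 were dim, and the median was -0.12. cyp11a1.1, the side-chain cleavage enzyme that starts steroid synthesis, read between 7.14 and 8.01 on all arrays. cyp17a1, the hydroxylase and lyase that leads to sex steroids, read between 6.56 and 12.7 over both of its probe sets, and both overlapped. cyp11c1, which completes cortisol synthesis in fish, read 28.2 and 35.2 in mutants and 40.1 and 35.6 in wildtype larvae, or -0.25 ± 0.16 (SE, log2), with a 95% interval from -0.65 to 0.14. The aromatases make estrogens, cyp19a1a chiefly in the gonad and cyp19a1b in radial glia of the brain. cyp19a1a read 12.1 and 12.8 against 15.6 and 14.0, a change of -0.24 ± 0.14 (SE). The 3 probe sets of cyp19a1b changed by -0.17, -0.12 and 0.06 with overlapping groups. The 3 that were not dim were those of cyp11c1 and cyp19a1a and 1 of cyp19a1b.

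For vitamin D, none of the 3 probe sets passed in limma, with 0 at an unadjusted p under 0.05. cyp24a1, which inactivates vitamin D, overlapped between groups in both of its probe sets. The brighter read 116.7 and 86.8 in mutants against 103.9 and 133.0 in wildtype larvae, and the other 15.4 and 32.2 against 30.2 and 47.4. Their log2 changes were -0.22 ± 0.20 and -0.74 ± 0.37 (SE). The dim cyp2r1, a vitamin D hydroxylase in mammals, read 8.27 and 8.96 against 10.3 and 10.1, a change of -0.22 ± 0.13 (SE).

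The remaining members were cyp4v2a and cyp4v2b, relatives of a human fatty acid hydroxylase, and cyp20a1, a P450 without an assigned substrate. cyp4v2a was dim and read 7.89 and 8.65 in mutants against 10.7 and 11.4 in wildtype larvae, or -0.38 ± 0.13 in log2 units (SE; adjusted p = 0.34, limma). cyp4v2b overlapped, with a change of -0.11 ± 0.15 (SE). cyp20a1 read 80.7 and 87.9 against 88.9 and 98.5, a change of -0.15 ± 0.14 (SE). The groups did not overlap, but the gap between them was smaller than the distance between arrays within either group.

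The 2 mutant arrays differed from each other across the family. Mutant replicate 2 read above mutant replicate 1 for 55 of 65 members (84.6%, against 55.3% of all probe sets), with a median log2 difference of 0.22 against 0.03 for all. Against the wildtype mean, 59 members lay below 0 on mutant replicate 1 (90.8%, against 61.3% of all probe sets). On mutant replicate 2, 42 did (64.6%, against 56.2% of all probe sets), and 41 lay below 0 on both (63.1%, against 41.5%). The median distance was -0.28 and -0.09 on the respective arrays, against -0.07 and -0.03 for all probe sets. The 2 wildtype arrays were closer, with wildtype replicate 3 above replicate 1 for 39 members (60%, against 42.0% of all probe sets) and a median difference of 0.07, against -0.04 for all. Without mutant replicate 1 the members' median change was thus -0.09, with 42 below 0. The called probe sets of cyp8b1.1 and cyp2ad2 were among the exceptions, as both read slightly lower on mutant replicate 2.

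**Figure D4:**
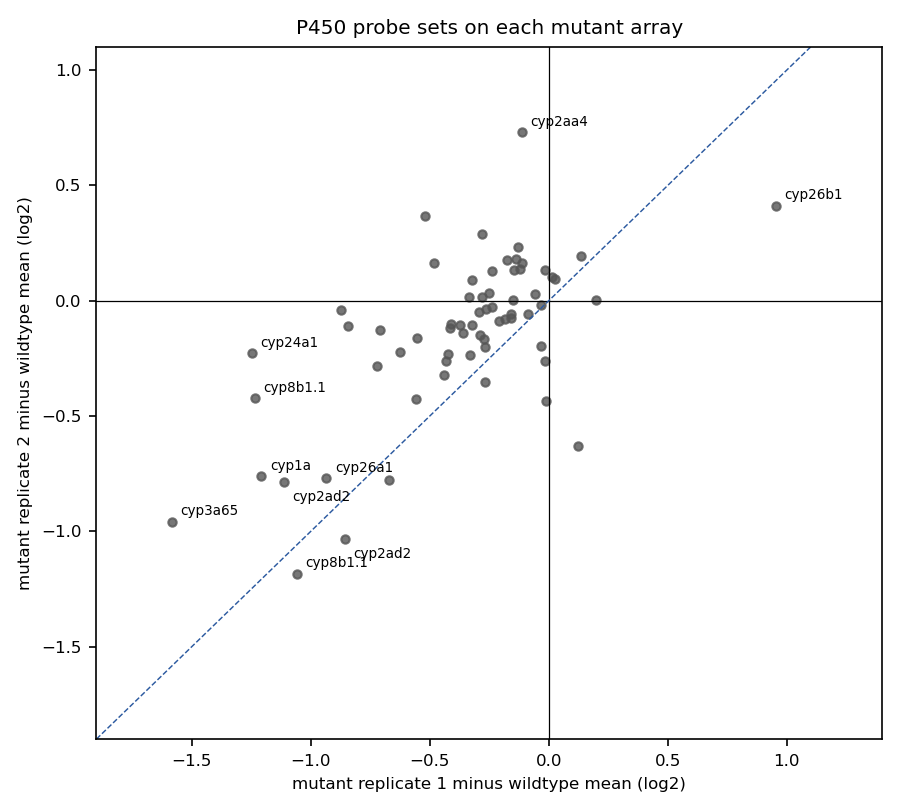
Log2 distance of each of the 65 P450 probe sets from the wildtype mean on mutant replicate 1 (horizontal) and mutant replicate 2 (vertical), with the dashed line marking equal distances. Of the 65, 55 lie above the line (84.6%, against 55.3% of all probe sets), and 41 lie below 0 on both arrays (63.1%, against 41.5%).

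Some markers of intestine and liver, organs that make many P450 enzymes, also differed between groups. So did those of the exocrine pancreas, which is not among the P450 sites named at the start. In the enterocyte marker list 3 of 13 measured genes fell, 10 did not pass and none rose; the median log2 change was -1.05. Those 3, fabp2, fabp6 and mep1a.1, changed by -2.53, -1.80 and -1.26. At an unadjusted limma p under 0.05, 8 of the 13 were lower and 1 was higher, against 6.84% and 5.1% of all probe sets. The list's summed intensity was 7113 on mutant replicate 1 and 11259 on mutant replicate 2, against 10726 and 12554 on the wildtype arrays. The largest part of this sum on each array was apoa1a, at 3508 and 6315 in mutants against 2425 and 2932. It read higher in mutants, while 11 of the 13 genes had changes below 0, so the sum does not stand for most of the list. In the hepatocyte list 1 of 14 genes (uox) was lower, 2 (fgb and fgg) were higher and 11 did not pass. The median was 0.04, but the genes went both ways. At an unadjusted limma p under 0.05, 4 were lower and 5 higher, against 6.84% and 5.1% of all probe sets. The list's summed intensity was 14996 and 21401 in mutants and 17535 and 20995 in wildtype larvae. Its largest part was apoa2, at 7598 and 9842 against 7846 and 9167. In these sums mutant replicate 1 was the lowest of the 4 arrays for both lists. That order failed in many single genes, so the sums do not stand for the lists. In the enterocyte list it failed for vil1, anpeplb, slc15a1b, apoa1a, chia.2, sult2st1 and aqp8a.1. In the hepatocyte list it failed for apobb.1, cp, hpxa, fga, fgb and fgg. The exocrine pancreas list had 12 of 14 genes lower, none higher, 2 not passing and a median of -3.31, with summed intensities of 3440 and 3209 against 26365 and 35361. The part of these cell types in the P450 values was not tested.

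Markers of brain, interrenal and kidney cells, other sites of P450 expression, were not called, and no markers of the gonad were listed. By limma 0 of 8 neuron, 0 of 7 radial glia, 0 of 5 interrenal and 0 of 9 kidney tubule genes passed, with medians of -0.11, -0.0027, -0.02 and -0.19. At an unadjusted limma p under 0.05, 0, 1, 0 and 2 were lower (6.84% of all probe sets). In the same order 1, 1, 0 and 0 were higher (5.1% of all probe sets). The smallest p in each belonged to elavl4, at 0.52 ± 0.14, s100b, at 0.64 ± 0.17, star, at 0.50 ± 0.26, and atp1a1a.4, at -0.72 ± 0.14 (SE, log2). Summed intensities overlapped between groups for neurons, at 2911 and 2832 in mutants against 3391 and 2742, and for radial glia, at 2735 and 3219 against 2554 and 3154. They also overlapped for interrenal genes, at 104.7 and 160.0 against 104.1 and 106.6. The summed kidney tubule intensities did not overlap, at 592.3 and 551.6 against 845.4 and 781.1. Their largest part was atp1a1a.4, at 337.4 and 307.2 against 561.3 and 501.4. In 5 of the 9 genes both mutant arrays lay below both wildtype arrays, where 26.3% of all probe sets did. Changes below 0 were found for 6 of the 9, against 60.1% of all probe sets. Of the interrenal genes 3 of 5 were dim. Of these genes, atp1a1a.4 encodes a sodium pump subunit, and star moves cholesterol into mitochondria for steroid synthesis.

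Genes that work with P450 enzymes showed few calls. Among redox partners and heme supply, 1 of 10 measured genes was lower and 9 did not pass, where 0.658% of all probe sets were called lower. The median was -0.07. At an unadjusted limma p under 0.05, 2 were lower and 0 were higher, against 6.84% and 5.1% of all probe sets. In 4 both mutant arrays lay below both wildtype arrays, where 26.3% of all probe sets did. The called gene was cyb5a, cytochrome b5, which passes electrons to P450 enzymes in the endoplasmic reticulum. It read 123.5 and 117.3 in mutants and 220.6 and 229.0 in wildtype larvae, or -0.90 ± 0.13 in log2 units (SE; adjusted p = 0.039, limma). The mitochondrial ferredoxin fdx1 read 190.7 and 235.2 against 316.6 and 414.1 and did not pass, with a change of -0.77 ± 0.19 (SE) and a limma adjusted p of 0.17. The oxidoreductase pora overlapped, at 19.1 and 30.6 against 18.5 and 21.9. The heme synthesis gene alas1 read 1246 and 1203 against 1257 and 1340, a change of -0.08 ± 0.13 (SE). Both fdx1 and pora were chosen after their values were seen, as was alas1.

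The list of xenobiotic-sensing receptors had 0 of 11 measured genes called by limma and a median of -0.11. At an unadjusted limma p under 0.05, 1 was lower and 1 was higher, against 6.84% and 5.1% of all probe sets. Beside the receptors ahr1a and ahr2 the list held arnt2, bmal1a, rxr genes, tiparp, nfe2l2a and keap1a, and the listed nr1i2 was not measured. The counts and median are thus mostly of genes other than such receptors. The smallest p was that of ahr2, the receptor through which dioxins induce cyp1a in zebrafish, which read 85.9 and 61.3 in mutants and 47.9 and 47.4 in wildtype larvae. Its change of 0.60 ± 0.19 (SE, log2), with a limma adjusted p of 0.28, had the opposite sign to that of cyp1a. Among conjugation and efflux genes 0 of 11 were called by limma. With a raw limma p under 0.05, 4 were lower and 1 was higher, against 6.84% and 5.1% of all probe sets. Of the 11, 10 values lay below 0, where 60.1% of all probe sets did. In 9 both mutant arrays lay below both wildtype arrays, where 26.3% of all probe sets did. The median was -0.24. The smallest p was that of sult2st2, a cytosolic sulfotransferase, at 147.2 and 239.4 against 407.2 and 407.0, or -1.11 ± 0.24 in log2 units (SE; adjusted p = 0.11, limma). In the bile acid and sterol handling list 0 of 7 measured genes were called by limma, with a median of -0.29. With a raw limma p under 0.05, 2 were lower and 1 was higher, against 6.84% and 5.1% of all probe sets. The list's smallest p was that of hsd3b7, which acts beside Cyp7a1 and Cyp8b1 enzymes in bile acid synthesis. It read 24.3 and 26.98 in mutants against 34.1 and 42.5 in wildtype larvae, or -0.55 ± 0.16 (SE, log2).

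The retinoic acid pathway had 1 of 14 measured genes lower, none higher and 13 not passing, with a median of 0.05. The lower gene was bco1, the enzyme that cleaves beta-carotene to retinal, which read 28.4 and 26.1 in mutants and 101.6 and 100.9 in wildtype larvae. The means differed 3.71-fold, or by -1.86 ± 0.13 in log2 units (SE; adjusted p = 0.0022, limma). The retinal dehydrogenase aldh1a2, which makes retinoic acid, overlapped between groups with a change of 0.15 ± 0.19 (SE), and the cellular retinoic acid binding protein crabp2b read 50.2 and 49.0 against 29.96 and 33.3, or 0.63 ± 0.14 (SE, log2) with a limma adjusted p of 0.11. Other genes went the other way, such as rbp2a at -1.26 ± 0.33 and aldh8a1 at -0.54 ± 0.21 (SE, log2), neither called. aldh1a2, crabp2b, rbp2a and aldh8a1 were chosen after their values were seen. Across the list, 3 genes were lower and 1 was higher at a raw limma p under 0.05, against 6.84% and 5.1% of all probe sets. In the list of steroid hormone synthesis and receptors 0 of 14 genes passed by limma, with a median of -0.04. At an unadjusted limma p under 0.05, 0 were lower and 1 was higher, against 6.84% and 5.1% of all probe sets. The smallest p was that of hsd11b2, which inactivates cortisol, at 0.53 ± 0.15 (SE, log2). In the list of fatty acid and eicosanoid partners 0 of 6 passed by limma, with a median of -0.10. At an unadjusted limma p under 0.05, 2 were lower and 0 were higher, against 6.84% and 5.1% of all probe sets. The smallest p was that of the prostaglandin D synthase gene ptgdsb.2, at -1.37 ± 0.33 (SE, log2).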

How the data were processed

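Expression was measured on 1-colour Affymetrix zebrafish arrays in 2 uhrf1 mutant and 2 wildtype samples. The deposited intensities per probe set were made by the authors with RMA, per the submitters' processing notes, on a linear scale and without detection calls. No version of RMA is stated. Of 15617 probe sets, 115 array controls were left out. Current symbols were found by Entrez ID for 10718 of 10802 singly named probe sets, which left the 65 members the same. The limma model (version 3.58.1, R version 4.3.3) had group as its only term and used log2(intensity + 1), a single prior variance and two-sided tests, with 2 residual and 4.04 prior degrees of freedom. Log2 changes carry the moderated SE, and folds are ratios of mean intensities.

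On data simulated for mutant against wildtype over 15502 probe sets, limma recovered 18 of 63 changes of 1 log2 unit, 71 of 75 of 2 units and 62 of 62 of 4 units. The number of arrays limits the precision.

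All members are accounted for. The rule named called members, the smallest p, highest mean and 2 largest changes in each family, and called or smallest-p genes of 7 pathway and 7 marker lists (136 of 234 listed genes measured). Of the exocrine genes called, the count is given. Members and lists were chosen with earlier results of these data known. The alternatives were other normalizations, a dim filter, another prior, pseudocount, thresholds, platform symbols and leaving out each array. Searches for sequence motifs were not run.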

Additional observations from a re-analysis of the deposited data

How the results depend on the processing

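The count of P450 probe sets called lower was 2 with quantile normalization and when members were taken by the platform's own symbols. It was 1 with median-centred arrays, 1 with arrays scaled on the hybridisation controls, 5 with the dimmest 25% removed (of 45 members tested), 7 with an intensity-dependent robust prior, 0 with a pseudocount of 16, 7 at an adjusted p under 0.10 and 1 when a log2 change of at least 1 was also required. Leaving out 1 array gave 0 to 2. With 1 array in a group, that array is assumed to vary like the other group. The count called higher was 0 in all of these, except for 11 with arrays scaled on the hybridisation controls. That scaling raised the median of all probe sets to 0.45 and of the members to 0.33, and it called 33.1% of all probe sets higher and 0.619% lower. Under it 3 members were called with the opposite sign, cyp2aa11 at 0.48, cyp2aa3 at 0.46 and the dim probe set of cyp7a1b at 0.48, and 38 others changed sign without a call. The number of all probe sets called was 233, and it was 394 with the robust prior, 80 with a pseudocount of 16, 5223 with scaling on the controls, 419 at an adjusted p under 0.10, and 154 to 310 with 1 array left out. The cause of these differences was not tested. No paired analysis was possible because the groups share 1 replicate number. Signal over background limits the 20 dim members.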
